A study of Homo sapiens with 40 samples.

Results

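Gasdermins are cytosolic proteins whose cleaved N-terminal fragment opens pores in membranes, the step that executes pyroptosis, a lytic and inflammatory form of cell death. Caspases and granzymes cut the different family members, and the C-terminal part of the protein holds the fragment inactive until then. GSDMD is the target of the inflammatory caspases, GSDMA is best known from skin and other stratified epithelia, GSDMB is cut by granzyme A and lies near ERBB2 on chromosome 17, and GSDMC is also an epithelial gene. The 4 members described here are GSDMA, GSDMB, GSDMC and GSDMD, found by their exact names among the 44584 gene names of the count table. The family was chosen by the log2 fold change with heregulin (HRG) in BT474R at 12 h, in which GSDMA rose most, so the values of the members in that comparison are a description without a test.

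BT474 is a HER2-positive breast cancer line derived from a ductal carcinoma, and BT474R is a single trastuzumab-resistant clone of it, raised by culture with the antibody. Both lines were serum-starved and sampled at once (T0) or 1 h, 12 h and 24 h after epidermal growth factor (EGF), HRG or water as the vehicle, which gave 20 groups of 2 libraries. EGF binds EGFR and HRG binds HER3, both partners of HER2. EGF was given at a higher mass concentration than HRG. Where EGF and HRG are compared directly, the ligand and its dose therefore cannot be told apart. Treatments were made in duplicate on plated cells, and neither the labels nor the methods say whether the 2 libraries of a group came from separate wells, days or passages, so p-values measure only the spread between these libraries, and differences between BT474R and BT474 cannot be told apart from those between 1 clone and its parent population.

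Depth was between 16794594 and 33387936 counts per library (median 24224094), so that 3 counts, taken as the detection limit, stood for 0.0929 to 0.180 CPM, the counts of a library brought to a common total with TMM factors. The reads have no molecular identifiers, and such limits speak of counting error alone. The luminal epithelial markers ERBB2, KRT8, KRT18, EPCAM, GATA3 and CDH1 summed to between 9008 and 14586 CPM. Of the leukocyte markers, PTPRC and CD3E did not pass 2 counts in any library, while CD68 was between 1.06 and 5.09 CPM and LYZ between 0.127 and 1.40 CPM. Of the stromal and endothelial markers, DCN did not pass 1 count and PECAM1 5 counts, whereas COL1A1 was read at 75.1 to 295 CPM and VWF at 8.61 to 23.0 CPM. In bulk RNA, fewer cells with a transcript and less of it per cell cannot be told apart.

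The promoter of GSDMA is shown because GSDMA is the member with the largest ligand response. It spans 250 bases before and 50 bases after the RefSeq start of the gene, at chr17:39962754-39963053 on the plus strand of GRCh38.p14, and lies inside the span that GENCODE v44 gives the gene (chr17:39953263-39977768). Capitals mark the letters GNGGGNG, the core of the EGR motif, read on either strand. EGR factors are immediate early products of growth factor signalling.
GSDMA: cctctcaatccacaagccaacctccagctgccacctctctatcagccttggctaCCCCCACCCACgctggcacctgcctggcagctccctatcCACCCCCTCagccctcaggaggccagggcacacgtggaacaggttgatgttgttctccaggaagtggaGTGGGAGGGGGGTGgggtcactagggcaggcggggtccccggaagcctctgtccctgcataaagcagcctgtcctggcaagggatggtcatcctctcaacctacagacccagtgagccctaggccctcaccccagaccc
These letters matched at 7 overlapping positions, and they stand in 71% of the 35116 RefSeq windows of this length, so a match is common. No match was found for AP-1 (TGANTCA, in 7.71% of windows), GAS (TTCNNNGAA, in 7.66%), the CRE core (TGACG, in 24.6%) or a TATA box (TATAAA, in 11.5%), on either strand. Letters of this kind are a description of the window and not binding sites. GSDMB lies on the minus strand of the same region, at chr17:39904595-39919854, with ORMDL3 and LRRC3C between it and GSDMA.

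The members differed widely in level. Per kilobase of the GENCODE v44 exons, the median CPM over the 20 libraries of a line was 17.8 (BT474) and 27.6 (BT474R) for GSDMB, 0.641 and 0.662 for GSDMD, 0.159 and 0.135 for GSDMA, and 0.0318 and 0.0349 for GSDMC. The GSDMD value is that of the row with the plain gene name, which a second row with 82.0% (BT474) and 80.1% (BT474R) of the GSDMD reads exceeded. Of the 6 gasdermin genes, GSDMB had the highest level by these medians. PJVK, a gasdermin gene best known for its part in hearing, had a median of 0.369 and 0.595 CPM per kilobase, between GSDMD and GSDMA, and GSDME had at most 0.00507, from 1 count in 1 library.

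**Figure D1:**
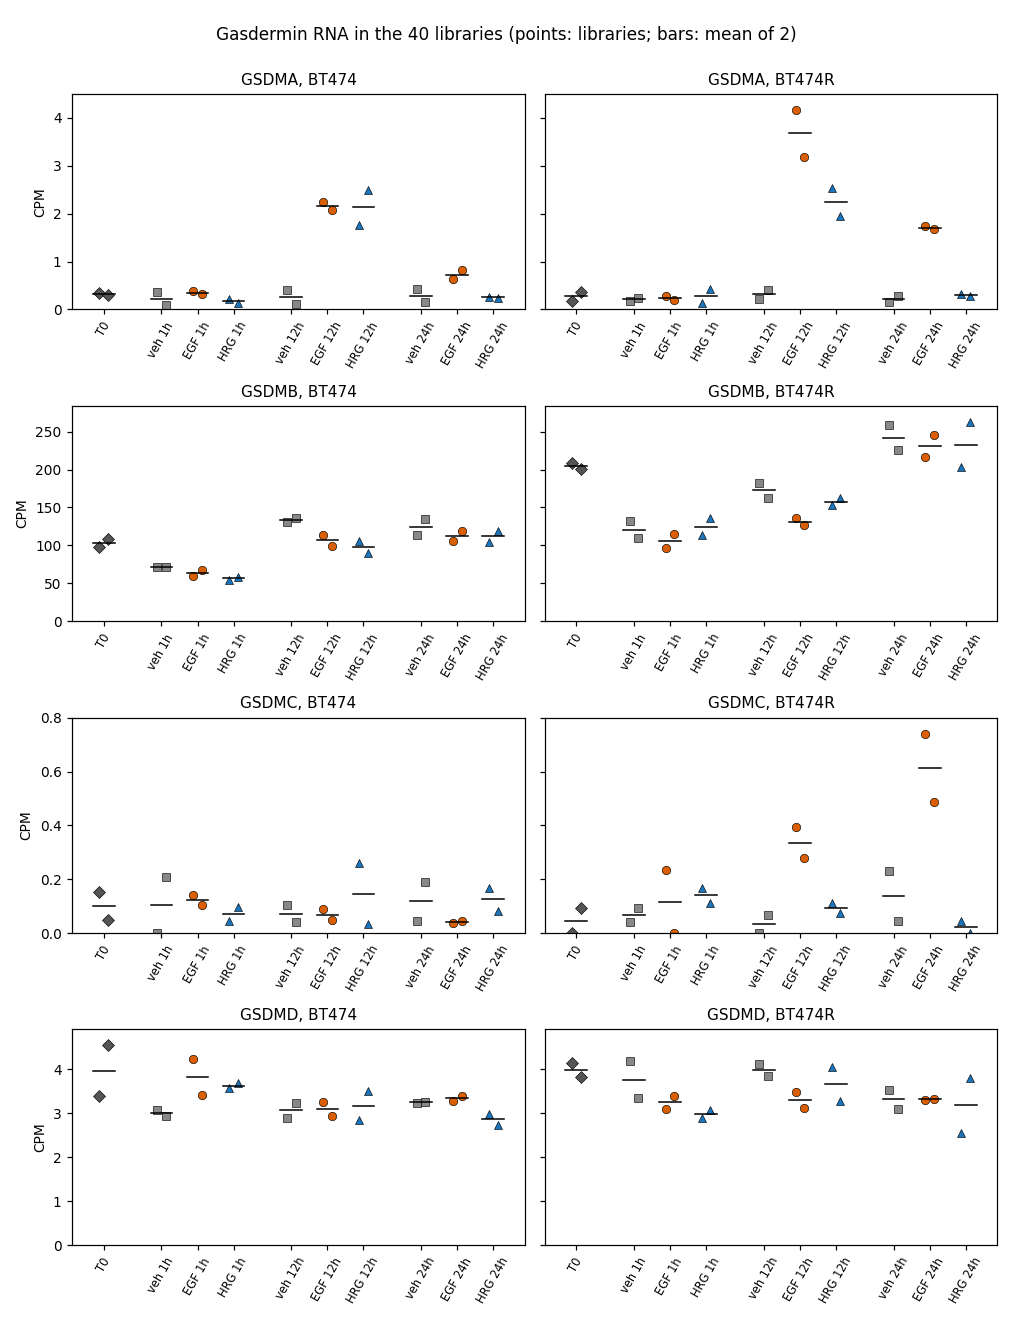
CPM (TMM scaled) of the 4 gasdermins in each library, with BT474 on the left and BT474R on the right, by treatment and time; points are libraries, short lines are means of 2 libraries, and each gene has its own axis. GSDMA stood above all vehicle libraries in the EGF and HRG libraries at 12 h of both lines, GSDMB was higher in BT474R, GSDMC reached its highest values in EGF-BT474R, and GSDMD stayed between 2.56 and 4.55 CPM.

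At 12 h GSDMA rose with both ligands in BT474 and with EGF in BT474R. In BT474 at 12 h, the vehicle libraries had 12 and 3 counts (0.414 and 0.120 CPM), the EGF libraries 51 and 43 (2.25 and 2.06 CPM) and the HRG libraries 41 and 72 (1.77 and 2.50 CPM). In BT474R at 12 h, the vehicle libraries had 5 and 12 counts (0.222 and 0.409 CPM), the EGF libraries 106 and 68 (4.16 and 3.18 CPM) and the HRG libraries 68 and 53 (2.53 and 1.96 CPM). In EGF-BT474, HRG-BT474 and EGF-BT474R every ligand library lay above both vehicle libraries, and the same order in HRG-BT474R belongs to the choice of the family. The log2 fold change over vehicle was 2.92 (SE 0.39) for EGF-BT474, 2.91 (SE 0.38) for HRG-BT474 and 3.48 (SE 0.34) for EGF-BT474R, with adjusted p of 4.4e-07, 1.3e-07 and 2.3e-07 (edgeR, quasi-likelihood F test, Benjamini-Hochberg adjusted over all genes). These are rises of 7.59-fold, 7.53-fold and 11.1-fold. The size of the rises in BT474 rested on the vehicle libraries: without vehicle replicate 1 they were 4.09 (EGF) and 4.08 (HRG) on the log2 scale, and without vehicle replicate 2 they were 2.36 and 2.35, all past the threshold. For HRG-BT474R, the comparison that picked the family, the value was 2.75 (SE 0.36), or 6.71-fold, with no test. EGF-BT474R and HRG-BT474R share their 2 vehicle libraries, as do EGF-BT474 and HRG-BT474. The BT474R vehicle libraries at 12 h were thus part of the choice of the family. The EGF-BT474R test at 12 h is therefore not independent of that choice, and its p-value may be too low. The same limit holds for every other test that uses these vehicle libraries.

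At 1 h GSDMA was at vehicle level. Over both lines, the 12 libraries of this time point had between 2 and 11 counts each. Its log2 fold changes at 1 h were 0.65 (SE 0.60) for EGF-BT474, -0.24 (SE 0.73) for HRG-BT474, 0.16 (SE 0.60) for EGF-BT474R and 0.32 (SE 0.57) for HRG-BT474R, and the lowest of their adjusted p was 0.799.

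At 24 h the EGF and HRG libraries had parted. In BT474R the EGF libraries held 40 and 41 counts (1.74 and 1.67 CPM), the HRG libraries 7 and 6 (0.326 and 0.281 CPM) and the vehicle libraries 4 and 6 (0.154 and 0.282 CPM). Of the HRG libraries, 1 lay at the higher vehicle library and the other just above it, while both EGF libraries lay well above. The log2 fold change over vehicle was 2.98 (SE 0.43, edgeR adjusted p = 2.7e-05) for EGF-BT474R, a rise of 7.88-fold, and 0.52 (SE 0.62, adjusted p = 0.776) for HRG-BT474R. Compared directly, HRG-BT474R was 5.48-fold lower than EGF-BT474R (log2 -2.45, SE 0.41, adjusted p = 4.2e-04), a call that was lost when only the libraries compared were fitted (adjusted p = 0.166).

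In BT474 at 24 h the EGF libraries had 17 and 18 counts (0.634 and 0.815 CPM), the HRG libraries 8 and 6 (0.269 and 0.246 CPM) and the vehicle libraries 9 and 4 (0.423 and 0.152 CPM). The EGF libraries lay above both vehicle libraries and the HRG libraries lay between them. For EGF-BT474 the log2 fold change was 1.36 (SE 0.50), which did not pass the threshold (adjusted p = 0.0559), and for HRG-BT474 it was -0.10 (SE 0.61). Without vehicle replicate 1, the EGF-BT474 value was 2.19 and passed (adjusted p = 0.025), and without vehicle replicate 2 it was 0.74 (adjusted p = 0.511). The direct difference of HRG from EGF in BT474 was -1.47 (95% interval -2.42 to -0.51, adjusted p = 0.194) at 24 h and -0.01 (95% interval -0.54 to 0.52) at 12 h.

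The HRG effect on GSDMA in BT474 was smaller at 24 h than at 12 h, by 3.02 on the log2 scale (SE 0.77, adjusted p = 0.0208). This is 1 of 4 members past the threshold, against 2.5% of all genes tested. DESeq2 gave no adjusted p for it, and the call was lost without vehicle replicate 2 at 12 h (-2.45), HRG replicate 2 at 12 h (-2.72) or vehicle replicate 1 at 24 h (-2.19). The change of the EGF effect from 12 h to 24 h was -1.56 (95% interval -2.95 to -0.18, adjusted p = 0.575) in BT474 and -0.50 (95% interval -1.83 to 0.82, adjusted p = 0.906) in BT474R.

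Between the lines, no difference in the ligand effects on GSDMA passed the threshold. The largest was that of EGF at 24 h, by 1.61 on the log2 scale more in BT474R (95% interval 0.14 to 3.08, adjusted p = 0.316), an interval that runs from almost no difference to a large one. For EGF at 12 h it was 0.54 (95% interval -0.71 to 1.79). At T0 GSDMA had 9 and 6 counts in BT474 and 3 and 8 in BT474R, a log2 difference of -0.16 (SE 0.63, adjusted p = 0.865). Vehicle libraries did not leave T0 at 1 h, 12 h or 24 h in either line by more than their spread, with log2 values between -0.54 and 0.18.

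**Figure D2:**
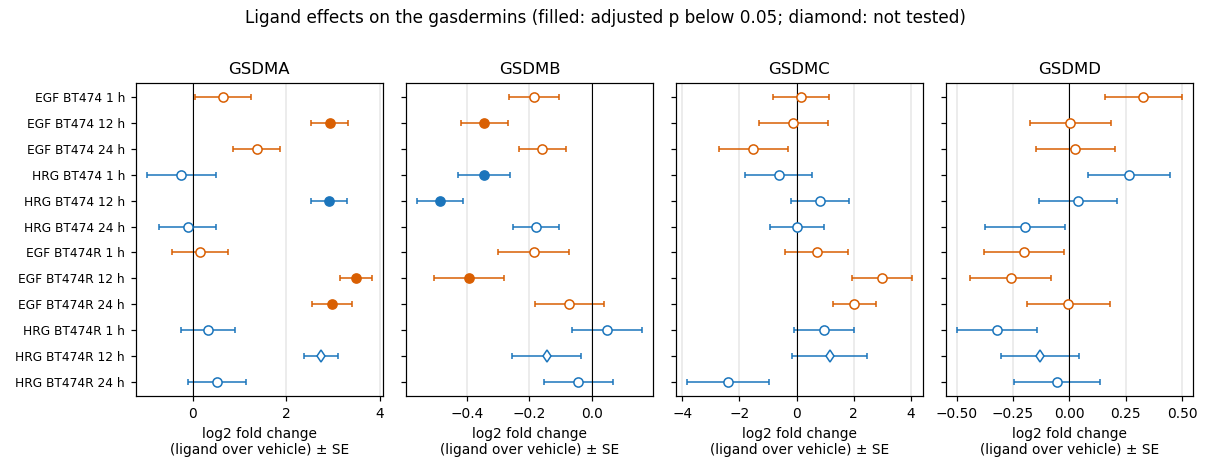
Log2 fold change over vehicle with its SE for each gasdermin in the 12 ligand comparisons, EGF in orange and HRG in blue; the 4 panels have different horizontal scales. Filled points passed an adjusted p of 0.05: GSDMA upward in EGF-BT474, HRG-BT474 and EGF-BT474R at 12 h and in EGF-BT474R at 24 h, and GSDMB downward in 4 comparisons. Diamonds mark HRG-BT474R at 12 h, which was not tested.

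Counted over the family, 2 of 4 members passed in EGF-BT474 at 12 h (16% of all genes tested passed), in HRG-BT474 at 12 h (25.8%) and in EGF-BT474R at 12 h (12%), each time GSDMA upward and GSDMB downward. In EGF-BT474R at 24 h GSDMA alone passed (17.3%), and in HRG-BT474 at 1 h GSDMB alone (2.77%). No member passed in edgeR in EGF-BT474 at 1 h (2.19%) or 24 h (16.4%), HRG-BT474 at 24 h (24.1%), EGF-BT474R at 1 h (0.457%) or HRG-BT474R at 1 h (0.169%) or 24 h (2.78%). In these 6 comparisons 1, 2, 1, 0, 0 and 0 members had an unadjusted p under 0.05. DESeq2 called 0, but gave no adjusted p for 2, 1, 1, 0, 0 and 2 of the 4 members. In HRG-BT474R at 12 h, 4.12% of all genes passed. With 2 or fewer of 4 members in any comparison, the counts say little beyond the genes themselves. They read each member on the row with its plain gene name. With the second rows of GSDMC and GSDMD summed in, GSDMD also passed downward in HRG-BT474 at 12 h and 24 h and in EGF-BT474 at 24 h. GSDMC then passed upward in EGF-BT474R at 12 h and 24 h.

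HRG and EGF compared directly gave no called member in BT474 at 1 h (0.139% of all genes passed), 12 h (2.17%) or 24 h (0.768%), nor in BT474R at 1 h (0.0494%). In edgeR 0, 0, 1 and 0 members had an unadjusted p under 0.05 there. DESeq2 called 0, but gave no adjusted p for 2, 2, 3 and 0 of the 4 members. The EGF effect at 24 h against 12 h gave 0 members in BT474 (0.517%) and 0 in BT474R (0.185%), with 1 and 0 at an unadjusted p under 0.05. DESeq2 called 0 of these, with no adjusted p for 2 members in each line. Differences between the lines in the EGF effect at 1 h (0.138%), 12 h (1.96%) and 24 h (4.01%) and in the HRG effect at 1 h (0.544%) and 24 h (3.33%) also gave 0 members in edgeR, with 1, 0, 2, 2 and 0 at an unadjusted p under 0.05 and 0 called by DESeq2.

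GSDMB moved the other way and by less. At 12 h in BT474 it was at 131 and 136 CPM in the vehicle libraries, 114 and 99.0 CPM with EGF and 106 and 89.8 CPM with HRG. Both pairs of ligand libraries lay below both vehicle libraries. The fall was 0.34 on the log2 scale for EGF (SE 0.07, edgeR adjusted p = 8.2e-04) and 0.49 for HRG (SE 0.07, adjusted p = 2.4e-06). Without EGF replicate 2 the EGF value was -0.24 and did not pass. In BT474R at 12 h the vehicle libraries had 182 and 163 CPM and the EGF libraries 136 and 127 CPM, which did not overlap. EGF lowered it by 0.39 on the log2 scale (SE 0.11, adjusted p = 0.0235), a call that DESeq2 did not make (adjusted p = 0.0616) and that was lost without vehicle replicate 1 (-0.30), EGF replicate 1 (-0.45) or EGF replicate 2 (-0.34). The HRG-BT474R libraries had 153 and 163 CPM, with a log2 value of -0.14 (SE 0.11) and no test.

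At 1 h GSDMB fell in HRG-BT474, from 71.2 and 71.9 CPM with vehicle to 54.7 and 58.8 CPM. The log2 value was -0.34 (SE 0.08, edgeR adjusted p = 0.0111), and DESeq2 did not call it (adjusted p = 0.138). The call was also lost without vehicle replicate 1 (-0.34), vehicle replicate 2 (-0.33) or HRG replicate 1 (-0.27). EGF-BT474 libraries had 60.3 and 67.6 CPM at this time (log2 -0.18, SE 0.08, adjusted p = 0.379). In BT474R at 1 h the vehicle libraries had 132 and 110 CPM, the EGF libraries 97.1 and 115 CPM and the HRG libraries 113 and 136 CPM. These 3 groups overlapped.

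At 24 h no ligand effect on GSDMB passed. In BT474 the vehicle libraries had 114 and 135 CPM, the EGF libraries 106 and 119 CPM and the HRG libraries 104 and 120 CPM, with log2 values of -0.16 (SE 0.07, adjusted p = 0.165) and -0.18 (SE 0.07, adjusted p = 0.0779). In BT474R they had 259 and 226, 216 and 246, and 203 and 263 CPM, with log2 values of -0.07 and -0.04. All 3 groups overlapped in each line.

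GSDMB was higher in BT474R than in BT474 before any ligand. The T0 libraries had 208 and 201 CPM in BT474R and 97.8 and 108 CPM in BT474, a 1.99-fold difference (log2 0.99, SE 0.11, edgeR adjusted p = 1.1e-09). Read on the rows with the plain gene names, it was the 1 of 4 members that passed at T0, where 46.9% of all genes tested did. Ordered by their means, the 6 highest of the 20 groups were all of BT474R, from vehicle at 24 h (242 CPM) to HRG at 12 h (158 CPM). The 3 lowest were the 1 h groups of BT474, at 71.6 CPM with vehicle, 64.0 CPM with EGF and 56.8 CPM with HRG. The first 3 groups of the order overlapped with one another.

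GSDMB also moved without ligand. T0 was taken straight after starvation, whereas vehicle cells received water in freshly made starvation medium. Time and the medium change therefore cannot be told apart here. Vehicle at 1 h was below T0 by 0.51 on the log2 scale in BT474 (SE 0.08, adjusted p = 1.8e-05), where 6.61% of all genes passed. In BT474R the value was -0.76 (SE 0.11, adjusted p = 3.2e-04), where 2.24% passed. In BT474, vehicle was above T0 at 12 h by 0.38 (adjusted p = 6.7e-04, 6.41% of genes passed) and at 24 h by 0.28 (adjusted p = 0.0102, 11.4%). The last of these was not called by DESeq2 (adjusted p = 0.0975), and it was lost without vehicle replicate 2 at 24 h (0.16) or T0 replicate 1 (0.21). The call at 12 h was lost without T0 replicate 1 (0.30). In BT474R the values were -0.24 at 12 h (adjusted p = 0.501, 1.13% of genes passed) and 0.25 at 24 h (adjusted p = 0.147, 13.7%). GSDMB was the 1 of 4 members that passed in each of the 4 called vehicle comparisons, and these changes without ligand, 0.28 to 0.76 in size, stood beside called ligand effects of 0.34 to 0.49.

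The 14 genes listed around GSDMB and GSDMA run from ERBB2 to CASC3. At T0, 6 of them were higher in BT474R and 3 lower, where 46.9% of all genes passed in either direction. ORMDL3, a regulator of sphingolipid synthesis and the direct neighbour of GSDMB, was higher by 0.70 on the log2 scale (SE 0.04), MIEN1 by 0.51 (SE 0.05) and GRB7, an adaptor of HER2 signalling, by 0.49 (SE 0.08). CASC3 was lower, with -0.37 (SE 0.05), and ERBB2 itself differed by 0.21. The median of the 14 was 0.24, against 0 over all genes, and GSDMB with 0.99 exceeded each of these named neighbours. With ligand, ORMDL3 fell as GSDMB did, by 0.17 in EGF-BT474 and 0.40 in HRG-BT474 at 12 h and by 0.25 in EGF-BT474R at 12 h. The list had 0 up and 3 down in EGF-BT474 (16% of all genes passed in either direction), 0 up and 5 down in HRG-BT474 (25.8%) and 2 up and 3 down in EGF-BT474R (12%) at 12 h, and the counts in BT474 are near these shares. The highest of the called rises among them were those of NR1D1, a clock gene, by 0.60 and of GRB7 by 0.48 in EGF-BT474R at 12 h, against 3.48 for GSDMA.

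**Figure D3:**
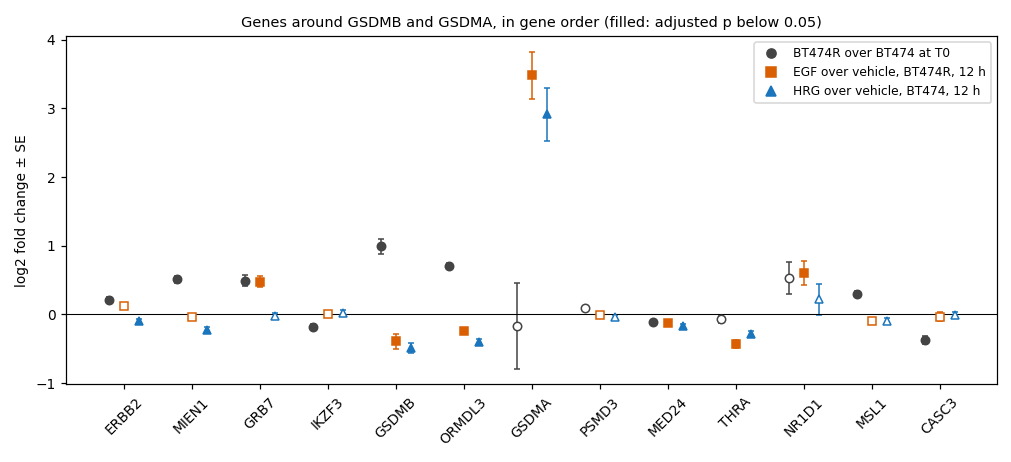
Log2 fold change with its SE for GSDMB, GSDMA and those of their listed neighbours with a median of at least 1 CPM, in gene order and not to scale. Grey circles compare BT474R with BT474 at T0, orange squares EGF with vehicle in BT474R at 12 h and blue triangles HRG with vehicle in BT474 at 12 h; filled symbols passed an adjusted p of 0.05. GSDMB is highest in the T0 comparison (0.99), and GSDMA stands apart in both ligand comparisons (3.48 and 2.91).

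GSDMC stayed near the detection limit in BT474, with 0 to 6 counts per library, and had its highest counts with EGF in BT474R. At 12 h the EGF-BT474R libraries had 10 and 6 counts, against 0 and 2 with vehicle and 3 and 2 with HRG. The 24 h libraries had 17 and 12 counts with EGF, 6 and 1 with vehicle and 1 and 0 with HRG. In both time points every EGF library lay above every other library of BT474R at that time. The ratio of the summed counts, EGF to vehicle and scaled for depth, was 8.86 at 12 h (exact 95% interval 2.08 to 79.4) and 4.12 at 24 h (1.77 to 11.2), from 16 against 2 and from 29 against 7 counts. These intervals cover counting error only. In edgeR the log2 fold changes, 2.99 (SE 1.04) at 12 h and 2.02 (SE 0.74) at 24 h, did not pass (adjusted p = 0.0669 and 0.0633).

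HRG and EGF differed for GSDMC in BT474R at 24 h. The count ratio of HRG to EGF was 0.0383 (exact 95% interval 9.4e-04 to 0.231), from 1 against 29 counts, and the edgeR test passed (adjusted p = 0.0148). With GSDMA, this made 2 of 4 members lower with HRG than with EGF in this comparison, against 5.18% of all genes tested. The GSDMC call was lost when only the libraries compared were fitted (adjusted p = 0.324), without EGF replicate 1 (log2 -4.09) and without HRG replicate 2 (log2 -3.57). The replicates of HRG-BT474R at 24 h also differed most of the 20 groups, with a median chi-square of 2.56 against 0.595 to 1.58 in the others.

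The table holds a second row for GSDMC and for GSDMD, with the gene's name and a number added, and which copy of the gene each row counts is not stated. For GSDMC, 42.4% of the reads of both rows in BT474 and 37.0% in BT474R were on the added row. It had 7 and 7 counts in EGF-BT474R at 12 h, against 2 and 3 with vehicle, and 6 and 6 at 24 h, against 0 and 1. With both rows summed, the log2 fold change of EGF-BT474R was 2.21 at 12 h (SE 0.54, edgeR adjusted p = 0.00859) and 2.33 at 24 h (SE 0.50, adjusted p = 0.00224), so both then passed. The count ratios were 4.74 (exact 95% interval 2.04 to 12.8) and 5.10 (2.36 to 12.6). HRG against EGF in BT474R at 24 h was -4.06 on the log2 scale (adjusted p = 4.4e-04) over both rows. In HRG-BT474 at 12 h both rows held 17 counts against 6 with vehicle (ratio 2.95, exact 95% interval 1.11 to 9.12). That effect did not pass in edgeR (adjusted p = 0.129). The EGF effect over both rows did not differ between the lines past the threshold at 12 h (edgeR adjusted p = 0.614) or 24 h (0.120).

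**Figure D4:**
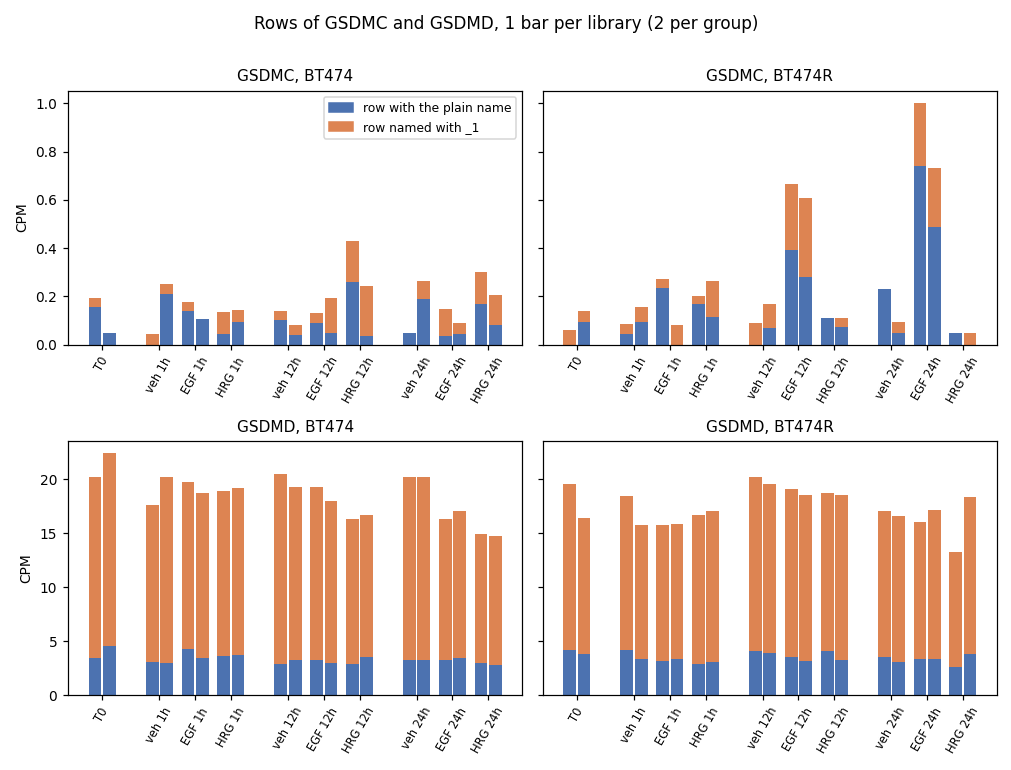
CPM of the row with the plain gene name (blue) and of the row with a number added (orange) for GSDMC and GSDMD, stacked, with 1 bar per library. GSDMC summed over both rows is highest in EGF-BT474R at 12 h and 24 h, and most GSDMD reads lie on the added row, which is lower with HRG than with vehicle in BT474 at 12 h and 24 h.

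GSDMD, the gasdermin of the inflammasome pathway, had 55 to 120 counts per library on the plain row, and none of its ligand effects passed. In BT474 at 12 h it had 2.90 and 3.24 CPM with vehicle, 3.26 and 2.93 with EGF and 2.85 and 3.51 with HRG. In BT474R at 12 h it had 4.12 and 3.85 CPM with vehicle and 3.49 and 3.13 with EGF, where the log2 value was -0.26 (SE 0.18, adjusted p = 0.427). Most reads were elsewhere: the added row took 82.0% of both rows' reads in BT474 and 80.1% in BT474R.

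On the added row of GSDMD, ligands lowered the level in BT474. It fell with HRG at 12 h from 17.6 and 16.1 CPM to 13.5 and 13.2 CPM (log2 -0.37, SE 0.09, edgeR adjusted p = 8.8e-04), with EGF at 24 h from 17.0 and 16.9 CPM to 13.1 and 13.7 CPM (log2 -0.35, SE 0.09, adjusted p = 0.00326), and with HRG at 24 h to 11.9 and 12.0 CPM (log2 -0.53, SE 0.09, adjusted p = 1.2e-05). The groups did not overlap in these 3 comparisons. EGF at 12 h, with 16.1 and 15.1 CPM, did not pass (log2 -0.13, adjusted p = 0.373). In BT474R no tested ligand effect on this row passed, the log2 values lying between -0.08 and 0.06. With both rows summed, GSDMD fell by 0.29 in HRG-BT474 at 12 h (adjusted p = 0.00439), by 0.29 in EGF-BT474 at 24 h (adjusted p = 0.00936) and by 0.46 in HRG-BT474 at 24 h (adjusted p = 2.6e-05). At T0 the summed level was lower in BT474R than in BT474 by 0.27 (adjusted p = 0.0231). The result for GSDMD therefore rests on which row is read.

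PJVK was lower with ligand in BT474 at 12 h. It had 81 and 65 counts with vehicle, 42 and 25 with EGF and 31 and 33 with HRG, and the log2 values were -0.83 (SE 0.26, edgeR adjusted p = 0.0263) and -1.16 (SE 0.27, adjusted p = 8.6e-04). At T0 it was higher in BT474R by 0.79 (SE 0.27, adjusted p = 0.0141). In BT474R no tested ligand effect on PJVK passed.

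The enzymes that cut gasdermins were only partly present. Of the 10 caspases and proteases listed, CASP1 did not pass 7 counts in any library, CASP5 1 count and GZMB 2 counts, and GZMA, ELANE and CTSG were at 0. CASP8, which acts in apoptosis, had a median of 30.6 CPM, and CASP4, which senses intracellular lipopolysaccharide and cuts GSDMD, 6.54 CPM. CASP4 was lower in BT474R at T0, at 2.38 CPM against 15.2 CPM (log2 -2.67, SE 0.18, edgeR adjusted p = 3e-15). All 4 genes of this list that were tested at T0 passed, 1 up and 3 down, with a median of -0.70. Of all genes, 46.9% passed there. With ligand in BT474 CASP4 fell, by 0.39 (EGF) and 0.42 (HRG) at 12 h and by 0.31 and 0.32 at 24 h. In EGF-BT474R CASP8 rose by 0.29 at 24 h. At 12 h the list had 0 up and 1 down of 5 tested in EGF-BT474 (16% of all genes passed) and in HRG-BT474 (25.8%). At 24 h it had 0 up and 2 down in EGF-BT474 (16.4%) and 0 up and 1 down in HRG-BT474 (24.1%). In EGF-BT474R, 1 of 4 tested was up at 12 h (12%) and 2 of 4 at 24 h (17.3%), with none down. With so few genes tested, these counts say little beyond the genes themselves.

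Some genes upstream and downstream of the gasdermins differed between the lines at T0, where 46.9% of all genes passed. PYCARD, the adaptor of inflammasomes, differed by -1.49 (SE 0.19) and CARD8, a sensor, by -0.34 (SE 0.10). These were 2 down and 0 up of 7 sensors and adaptors tested, with a median of -0.50, and NLRP1, AIM2 and NLRP6 did not pass 2 counts in any library. Among released cargo and effectors, 3 of 6 tested were down and none up, with NINJ1, which ruptures the membrane after pore formation, at -0.93 (SE 0.07, adjusted p = 1.9e-14). For sensors and adaptors and for cargo and effectors, the share that passed was below or near that of all genes. NINJ1 also fell with EGF and HRG in BT474, by 0.20 and 0.33 at 12 h and by 0.36 and 0.45 at 24 h, and in EGF-BT474R by 0.35 and 0.45. HMGB1, a nuclear protein released by dying cells, rose by 0.30 in EGF-BT474R at 24 h. The interleukins IL1A, IL1B and IL33 did not pass 6 counts in any library. With HRG in BT474R at 24 h, 1 cargo gene passed (HMGB1, 0.26), and no caspase or sensor did.

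GSDMA rose at 12 h together with some genes of stratified epithelium, and the medians of the list were above those of all genes. By 24 h GSDMA and the list did not always move together. KRT16, a keratin of activated keratinocytes, rose in EGF-BT474 (log2 2.09, SE 0.26), HRG-BT474 (3.02, SE 0.23) and EGF-BT474R (3.51, SE 0.20) at 12 h. At 24 h it was still up by 3.29 (SE 0.22) in EGF-BT474R and by 1.54 (SE 0.26) in HRG-BT474R, where GSDMA was at 0.52. CALML5, a calcium-binding protein of the epidermis, rose by 1.36, 1.45 and 0.65 in the same 12 h comparisons. Of the keratinocyte genes tested, 4 of 17 were up in EGF-BT474, 6 of 17 in HRG-BT474 and 4 of 15 in EGF-BT474R at 12 h, with none down. Of all genes, 16%, 25.8% and 12% passed in these comparisons in either direction. At 24 h, 7 of 17 were up and 1 down in EGF-BT474 and 6 of 17 up in HRG-BT474, where GSDMA did not pass and 16.4% and 24.1% of all genes did. In BT474R at 24 h, 2 of 15 were up with EGF and 1 of 15 with HRG, where 17.3% and 2.78% of all genes passed. The medians at 12 h were 1.23, 0.93 and 0.65, against -0.03, -0.02 and -0.01 over all genes.

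GSDMC was highest in the groups where interferon response genes were highest. In EGF-BT474R, 10 of 12 of these genes were up at 12 h (12% of all genes passed) and 11 of 12 at 24 h (17.3%). Their medians were 1.84 and 1.53, against -0.01 over all genes at each time. IRF1, a transcription factor of this response, rose by 2.18 (SE 0.22) at 1 h, 3.13 (SE 0.23) at 12 h and 2.94 (SE 0.24) at 24 h. IFIT3 was at 5.83 CPM with EGF against 0.0392 CPM with vehicle at 12 h and at 8.07 against 0.0470 CPM at 24 h, and OAS2 at 9.34 against 0.0384 CPM at 24 h. None of the 12 passed in HRG-BT474R at 24 h, in edgeR and with 2.78% of all genes called. In BT474 at 12 h the list had 0 up and 2 down with either ligand, STAT2 and IRF2. There 16% (EGF) and 25.8% (HRG) of all genes passed. At 24 h it had 1 up and 1 down, where 16.4% (EGF) and 24.1% (HRG) of all genes passed.

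Of the 5 leukocyte markers, CD68, a lysosomal protein abundant in macrophages, was the 1 that passed in EGF-BT474R, up by 0.77 (SE 0.23) at 12 h and 1.36 (SE 0.22) at 24 h. Their sum was 3.55 to 3.57 CPM with EGF against 2.17 to 2.18 CPM with vehicle at 12 h, and 4.89 to 5.49 against 2.19 to 2.73 CPM at 24 h, with PTPRC and CD3E at no more than 2 counts throughout. The stromal and endothelial sum was 209 to 211 CPM with EGF against 192 to 202 CPM with vehicle at 12 h, and 280 to 307 against 288 to 299.8 CPM at 24 h. The part of other cells in the rise of GSDMA and GSDMC with EGF was not tested.

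Over the 20 group means, centred within each line, the genes most like GSDMA by Pearson's r were INSM1 (0.93), CD81 (0.92), S100A11 (0.92), ITGB4 (0.92) and MICAL1 (0.92), out of 15311 genes. For GSDMB these were IGIP (0.97), PABPC1L (0.96) and MSL1 (0.96), the last also a neighbour on chromosome 17. For GSDMC they were IFI44 (0.89), SERPING1 (0.88) and IFIT5 (0.86), whose r within BT474 alone was 0.14, 0.51 and -0.17 and within BT474R 0.95, 0.91 and 0.93. For GSDMD on the plain row they were DNPH1 (0.77), XAB2 (0.74) and HMG20B (0.74). Between the members r was highest for GSDMA and GSDMC (0.50) and lay between -0.23 and 0.11 for the other pairs. The points share libraries, vehicle and depth, so these values describe the profiles only.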

How the data were processed

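RNA-seq covered 40 libraries, 2 for each line, treatment and time. The authors trimmed the reads with Trim Galore 0.6.6, aligned them to GRCh38 and deposited raw counts from featureCounts, without normalization. Which annotation release and strand option they used, and how reads with several matches were counted, is not given in the sources used here, and bears on GSDMC and GSDMD, which have added rows. Of the 44584 names, 5078 are added rows. Columns were assigned by the names in the sample descriptions.

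Each line was fitted with its 20 libraries in edgeR 4.0.16 (R 4.3.3), with TMM scaling, genes with at least 1 count in 50% of the libraries, quasi-likelihood F tests and Benjamini-Hochberg adjustment over all 25146 (BT474) or 24287 (BT474R) genes, at a threshold of 0.05. Comparisons between lines used 1 fit of 40 libraries and 24641 genes. Intervals of log2 values are 95% normal intervals, and those of count ratios are exact. All 4 members passed the filter in each fit. The code was tested on simulated data.

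The members and gene lists were chosen with earlier results of these data known. Named genes are the members, GSDME, PJVK, the added rows, the most alike genes, and, for each list and comparison, at most 4 genes past the threshold whose mean in the line was 1 CPM or more; genes named as at or near 0, markers, and ERBB2 among the neighbours were added for context. Lists were caspases and proteases, sensors and adaptors, cargo and effectors, neighbours, keratinocyte genes, interferon response genes, and luminal, leukocyte, and stromal and endothelial markers. Some members of these lists are not reported here. Promoters were read from a RefSeq table and gene spans from GENCODE v44; the exon lengths may differ from those counted. Alternatives were added rows summed, 1 fit for both lines, DESeq2 1.42.0, edgeR with the size factors of DESeq2, a fit of only the libraries compared, a replicate block, filterByExpr or no filter, and leaving out each library in turn.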

Additional observations from a re-analysis of the deposited data

Results flagged for a closer look

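The HRG effect on GSDMA in BT474 differed between time points by its own test: it was lower at 24 h than at 12 h by a log2 of -3.02 (SE 0.77, edgeR adjusted p = 0.0208), with both HRG libraries above both vehicle libraries at 12 h and between them at 24 h.

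GSDMC in HRG-BT474R lay above vehicle at 12 h (log2 1.16, from 3 and 2 counts against 0 and 2) and below it at 24 h (from 1 and 0 counts against 6 and 1). With the added row of the gene summed, the 12 h value turned to -0.28, from 6 against 7 counts. The difference was not tested, and nearly all of these counts are at or under the detection limit of 3.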

How the results depend on the processing

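Over 942 alternative values that kept every library, 908 were labelled as unchanged. For tested values this meant the same direction and side of the threshold, counting a direction only for values past it. For the untested values of HRG-BT474R at 12 h it meant a shift below the SD of log2 CPM between libraries of a group. Called effects of GSDMA against vehicle passed under each alternative run. A replicate block changed 1 call, GSDMB in HRG-BT474 at 24 h (-0.18, then past the threshold). The deviations of same-numbered libraries from their group means correlated by over 0.1 in 6 (BT474) and 11 (BT474R) of 45 pairs of groups per line, and by -0.0778 to 0.268 and -0.0942 to 0.390 between groups of the same time, so some pairs moved together and the numbers were not taken to pair the libraries. With added rows summed, GSDMD changed from not called to lower in HRG-BT474 at 12 h (-0.29), EGF-BT474 at 24 h (-0.29), HRG-BT474 at 24 h (-0.46) and BT474R against BT474 at T0 (-0.27), against plain row values of 0.04, 0.03, -0.20 and 0.02, while GSDMC in EGF-BT474R passed at 12 h (2.21) and 24 h (2.33) and in HRG-BT474R at 12 h moved to -0.28. With no filter, further calls were GSDMB in EGF-BT474 at 1 h (-0.18) and 24 h (-0.15), in HRG-BT474 at 24 h (-0.17), its HRG effect at 24 h against 12 h in BT474 (0.31) and EGF effect in BT474R (0.30), HRG against EGF in BT474R at 1 h (0.24), vehicle against T0 in BT474R at 12 h (-0.23) and 24 h (0.26) and the HRG effect between lines at 1 h (0.36), and GSDMA in EGF-BT474 at 24 h (1.37) and GSDMC in EGF-BT474R at 12 h (3.00) and 24 h (2.01). Fitting only the libraries compared lost HRG against EGF in BT474R at 24 h for GSDMA (-2.46) and GSDMC (-4.41), and added GSDMC in EGF-BT474R at 12 h (2.99) and GSDMB for vehicle against T0 in BT474R at 12 h (-0.25) and 24 h (0.26) and for the HRG effect between lines at 1 h (0.38). With 1 fit of both lines, GSDMB lost HRG-BT474 at 1 h (-0.33) and vehicle at 24 h in BT474 (0.28), and GSDMC in EGF-BT474R passed at 12 h (2.99) and 24 h (2.02), the latter also with filterByExpr (2.01). DESeq2 did not call GSDMB in HRG-BT474 at 1 h (-0.33), vehicle at 24 h in BT474 (0.28) or EGF-BT474R at 12 h (-0.38). The cause of these changes was not tested.

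Leaving out 1 library, with a lone library assumed to vary like the other groups, changed the call of GSDMB in HRG-BT474 at 1 h (-0.38 to -0.27), EGF-BT474 at 12 h (-0.44 to -0.24) and 24 h (-0.28 to -0.031), HRG-BT474 at 24 h (-0.29 to -0.039), its HRG effect at 24 h against 12 h (0.19 to 0.44), vehicle in BT474 at 12 h (0.30 to 0.46) and 24 h (0.16 to 0.40) and EGF-BT474R at 12 h (-0.45 to -0.30), of GSDMA in EGF-BT474 at 24 h (0.74 to 2.19) and its HRG effect at 24 h against 12 h (-4.18 to -2.19), and of GSDMC for HRG against EGF in BT474R at 24 h (-6.93 to -3.57). Values without a test in HRG-BT474R at 12 h ranged over 2.44 to 3.33 for GSDMA, -0.19 to -0.044 for GSDMB, 0.42 to 4.26 for GSDMC and -0.29 to 0.036 for GSDMD. Low counts limit the precision of GSDMA and GSDMC. DESeq2 gave no adjusted p for 44 values, and 14 values could not be had because a filter left the gene out.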
